A study of Mus musculus with 9 samples.

Results

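The genes described here encode the presynaptic vesicle and release machinery, as a list of 34 genes given for this work by name and not by any measured value. All 34 were listed in each of the 9 libraries, which together list 17487 genes. They were followed in neocortical cells of mouse embryos at E18.5, prepared as 1 droplet library per embryo with 3′ chemistry, and levels are counts of unique molecular identifiers (UMIs), which tag single transcripts. All embryos came from breedings of heterozygous animals of the line Tcf4ex4WT/lacZ, in which a *lacZ*/neomycin cassette sits before exon 4 of *Tcf4*. Of the 9 libraries, 5 are labelled wild type (WT) and 4 *Tcf4* knockout (KO, homozygous for the insertion), and both kinds were littermates. The insertion disrupts the long isoform TCF4B and leaves shorter isoforms such as TCF4A. The comparison between genotypes used WT replicates 2, 3 and 4 (WT2, WT3, WT4) and KO replicates 4 and 5 (KO4, KO5), and WT replicate 5 (WT5) is given beside them.

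At a release site, synaptic vesicles are filled with transmitter by vesicular transporters, tethered by Rab3 and active zone scaffolds, and fused when the vesicle SNARE meets the SNAREs of the plasma membrane, with synaptotagmins as calcium sensors. NSF and the SNAP adaptor proteins then take the SNARE complex apart, and dynamins help to retrieve the membrane. At late embryonic stages most cortical neurons are still extending axons, and many of these proteins are already made before synapses form in number. *Tcf4* encodes a basic helix-loop-helix factor that binds E-boxes, and the study asked which transcripts depend on it in neurons that project between the hemispheres.

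Among all kept cells, *Tcf4* lay at 12.2 to 12.6 UMIs per 10000 UMIs in WT2, WT3 and WT4 and at 9.29 and 7.59 in KO4 and KO5 (2-sided exact permutation test, p = 0.2, the smallest that 3 against 2 libraries can give with this test). It lay at 7.20 in WT5, 4.65 in the library labelled WT1 and 16.7 in the library labelled KO1, which goes against these labels. The study left out a WT animal whose *Tcf4* was below that of the KO, without naming its library. The libraries compared follow the study's removals, so *Tcf4* took part in choosing them. The separation in *Tcf4* is therefore not independent of that choice. The 3′ end of the gene lies beyond the insertion, so these tags do not read the allele itself. The median depth of kept cells ran from 2478.5 to 4359 UMIs in the WT libraries compared, was 2290 and 2217 in the KO libraries and 2226 in WT5, so depth moved with genotype. Cells with more than 1% haemoglobin UMIs, which were left out, made up 0.421 to 1.34% of the WT cells compared and 13.9 and 40.4% in KO4 and KO5. KO5 held no *Xist* UMI and 545 UMIs of Y-linked genes, and the other 8 libraries held *Xist* UMIs and 0 UMIs of those genes, so sex was not balanced. No 2 libraries shared more than 46 cell barcodes.

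Cells were assigned by counting distinct markers of each class after thinning to 1800 UMIs, and none of the 34 genes was such a marker. The gates held 759 newborn, 3892 upper layer, 1572 deep layer and 811 GABAergic cells over the 5 libraries compared. Of these, 44.3, 37.3, 49.2 and 35.3%, in the same order, had only the minimum of 2 markers. The 10 genes with the largest fold in each gate included 5 to 8 markers of that gate and none of another list. Cells were gated on these markers, so their place among the 10 genes follows from the gating and does not test cell identity. In the GABAergic gate the 10 genes also included the presynaptic genes *Nrxn3* in WT and *Syt13* in KO cells. The GABAergic gate differed in its content between genotypes. The summed level of its 8 markers was 19.2, 24.3 and 23.3 UMIs per 10000 in WT2, WT3 and WT4 against 12.6 and 11.6 in KO4 and KO5, and that of *Neurod6*, a marker of the glutamatergic lineage, was 2.98, 1.99 and 1.82 against 8.32 and 9.30. WT5 resembled the KO libraries here, with 11.6 for the markers and 5.97 for *Neurod6*. The gate held 27, 37 and 633 WT cells by library, and 75 and 39 KO cells.

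TCF4 binds E-boxes, written CANNTG, so the letters of the 250 bases before and 50 bases after the start of transcription were read for the members with a RefSeq promoter (GRCm38.p6), 28 of the 34. CANNTG occurred in 19 of them (67.9%) and in 72.3% of 32851 promoters of the same length. CAGGTG, or CACCTG on the other strand, which is 1 form of CANNTG, occurred in 6 of the 28 (21.4%) and in 20.2% of all promoters. The promoters that follow are *Rab3a* (chr8:70754453-70754752, plus strand), the gene called between genotypes in upper layer cells, and the vesicular transporters *Slc17a6* (chr7:51621580-51621879, plus strand) and *Slc32a1* (chr2:158610508-158610807, plus strand), which separate glutamatergic from GABAergic cells. Capitals mark CANNTG. For *Rab3a* and *Slc17a6*, 2 starts are listed and 1 is shown.
*Rab3a*: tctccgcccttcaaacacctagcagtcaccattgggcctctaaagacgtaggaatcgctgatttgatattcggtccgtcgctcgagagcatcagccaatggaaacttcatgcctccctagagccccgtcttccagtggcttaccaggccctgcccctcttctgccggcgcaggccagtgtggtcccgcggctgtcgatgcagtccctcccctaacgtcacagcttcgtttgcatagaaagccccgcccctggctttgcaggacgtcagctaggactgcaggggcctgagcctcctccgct
*Slc17a6*: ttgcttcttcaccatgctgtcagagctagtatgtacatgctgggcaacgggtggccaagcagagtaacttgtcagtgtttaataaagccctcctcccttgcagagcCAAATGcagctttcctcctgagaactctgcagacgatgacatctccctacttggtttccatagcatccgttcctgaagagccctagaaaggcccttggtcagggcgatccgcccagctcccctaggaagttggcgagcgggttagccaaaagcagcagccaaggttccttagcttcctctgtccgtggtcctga
*Slc32a1*: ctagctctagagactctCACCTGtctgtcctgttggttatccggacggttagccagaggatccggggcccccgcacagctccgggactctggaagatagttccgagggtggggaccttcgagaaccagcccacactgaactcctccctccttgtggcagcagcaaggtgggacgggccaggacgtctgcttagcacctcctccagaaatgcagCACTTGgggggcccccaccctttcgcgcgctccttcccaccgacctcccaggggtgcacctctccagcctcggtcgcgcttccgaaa
The *Rab3a* window holds no match, the *Slc17a6* window 1 and the *Slc32a1* window 2, of which 1 is CACCTG. A match is a description of the letters and not evidence of a site.

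In WT cells transcripts of many of these genes were already seen in newborn neurons, though not all lay above the background there. Few of the genes were called between neuronal classes. The summed level of the 34 genes was 24, 21.8 and 24.4 UMIs per 10000 in newborn cells of WT2, WT3 and WT4. In upper layer cells it was 26.6, 24.7 and 26.5, and in deep layer cells 27.1, 27.0 and 29.5. In endothelial gated cells of the same libraries it was 8.21, 6.93 and 9.75. Neuronal levels thus lay above the endothelial ones in every WT library compared, as the plot of summed levels shows.

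**Figure D1:**
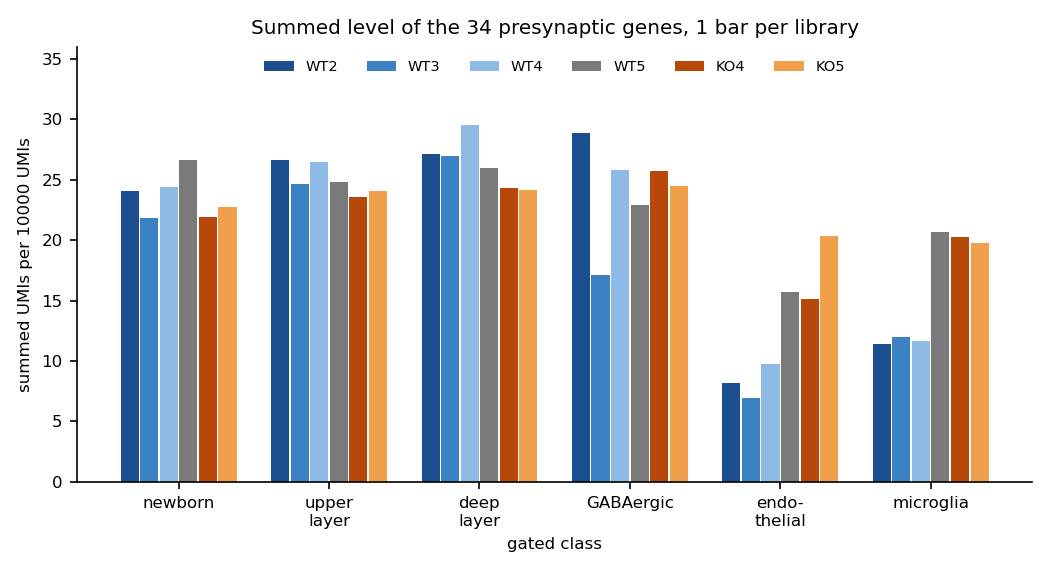
Summed level of the 34 presynaptic genes (y axis, UMIs per 10000 UMIs) in 6 gated classes (x axis), with 1 bar per library. In the endothelial gate the WT2, WT3 and WT4 bars lie between 6.93 and 9.75, and the KO4, KO5 and WT5 bars between 15.1 and 20.4.

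Of 30 members tested, 20 were higher in deep layer than in newborn cells and 10 lower. Called were 3 as higher and none as lower, where 0.923% of all 9532 genes were called, 0.451% higher and 0.472% lower (limma-trend, Benjamini-Hochberg). At an unadjusted p under 0.05 there were 9 members, where 10.4% of all genes passed. edgeR called 8 members, 7 higher and 1 lower, and 636 of the 9532 genes. The 3 genes called by limma act at different steps. *Syt4*, a synaptotagmin found on dense core vesicles and the Golgi, lay at 3.29, 2.54 and 3.60 UMIs per 10000 in newborn cells of WT2, WT3 and WT4 and at 5.52, 6.17 and 4.40 in deep layer cells. All 3 deep layer values lay above all newborn values. Its log2 difference was 0.62 ± 0.13 (SE, n = 3 libraries, limma adjusted p = 0.0183).

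*Stx1a*, the plasma membrane SNARE syntaxin 1A, lay at 0.0939, 0.0794 and 0.315 in newborn and 0.851, 0.380 and 0.561 in deep layer cells, again without overlap (log2 difference 0.45 ± 0.10, limma adjusted p = 0.021). *Sncb*, which encodes beta-synuclein, lay at 0.382, 0.189 and 0.228 in newborn and 0.719, 0.622 and 0.803 in deep layer cells (0.44 ± 0.09, limma adjusted p = 0.0188). For each of these genes the deep layer value was the higher one in 3 of 3 libraries. The deep layer gate held 63, 46 and 590 cells of these libraries, and the calls depended on single libraries. *Syt4* and *Stx1a* were not called without WT2, WT3 or WT4 (adjusted p of 0.0553 to 0.258 and 0.0588 to 0.168), and *Sncb* was not without WT3 or WT4 (0.162 and 0.539). *Stx1a* was lost in 8 of 10 alternatives, thinned cells among them (adjusted p = 0.223), over which its adjusted p ran from 0.000176 to 0.396 and its difference stayed positive. In thinned cells the share with a *Stx1a* UMI was not above that of endothelial and microglia cells in every WT library, in newborn or in deep layer cells, and the same held for *Sncb* in newborn cells.

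*Syt11*, a synaptotagmin that does not bind calcium, and *Slc17a6*, the vesicular glutamate transporter VGLUT2, had the lowest differences between deep layer and newborn cells. *Syt11* was at 2.17, 2.3 and 2.08 in newborn and 1.44, 1.39 and 1.83 in deep layer cells (-0.32 ± 0.12, limma adjusted p = 0.312), and *Slc17a6* at 0.5, 0.950 and 0.543 against 0.250, 0.501 and 0.253 (-0.31 ± 0.10, limma adjusted p = 0.195). Neither passed the limma test, and edgeR called *Slc17a6* lower in deep layer cells (-1.10, adjusted p = 4.69e-05).

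None of 30 members was called between newborn and upper layer cells, where 0.325% of all genes were called (0.136% higher, 0.189% lower), although 4 had an unadjusted p under 0.05 (4.02% of all genes) and edgeR on the recovered UMIs called 5 (422 of all 9532 genes). The highest differences were those of *Syt4*, at 4.29, 4.52 and 4.70 in upper layer cells (0.42 ± 0.13 over newborn, limma adjusted p = 0.414), and of the membrane fission GTPase *Dnm3*. *Dnm3* was at 0.0585, 0.305 and 0.532 in newborn and 0.701, 0.481 and 0.687 in upper layer cells (0.34 ± 0.12, limma adjusted p = 0.545). The lowest were *Syt11* (-0.20 ± 0.12) and *Slc17a6* (-0.19 ± 0.10), both with a limma adjusted p of 0.999.

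Between upper and deep layer cells again none of 30 was called (0.43% of all genes, 0.199% higher and 0.231% lower), 3 had an unadjusted p under 0.05 (4.11% of all genes) and edgeR called 4 (463 of all 9532 genes). The plasma membrane SNARE *Snap25* was at 0.825, 1.16 and 0.974 in upper and 0.928, 2.33 and 1.85 in deep layer cells (-0.41 ± 0.15, upper minus deep, limma adjusted p = 0.859). *Sncb* was at 0.347, 0.389 and 0.392 in upper layer cells, below its deep layer level in each library (-0.32 ± 0.09, limma adjusted p = 0.335). The vesicle GTPase *Rab3c* (0.19 ± 0.12) and *Slc17a6* (0.13 ± 0.10) had the highest differences toward upper layer cells, both with a limma adjusted p of 1. Over all 34 genes the median log2 difference was -0.01 for those tested, beside -0.001 over all genes.

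**Figure D2:**
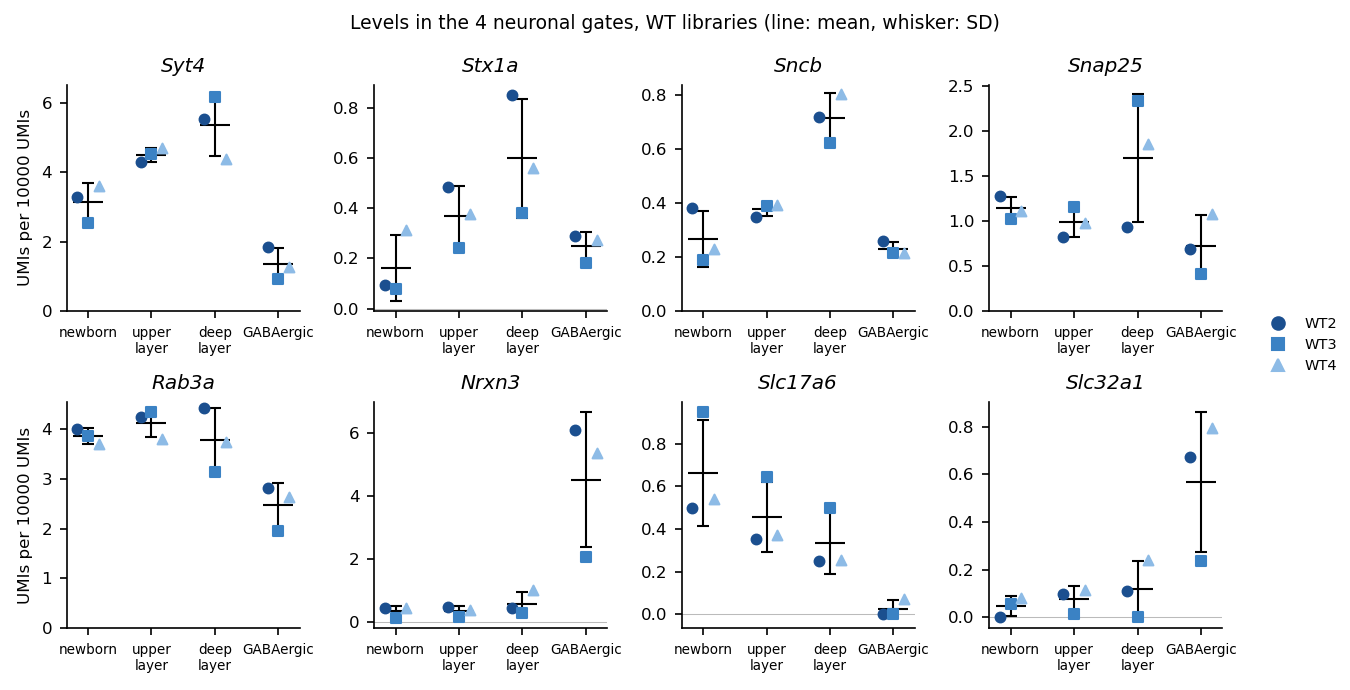
Levels of 8 presynaptic genes (y axis, UMIs per 10000 UMIs) in the 4 neuronal gates (x axis) of WT2, WT3 and WT4, with the mean as a line and the SD as whiskers. *Syt4*, *Stx1a* and *Sncb* lie higher in deep layer than in newborn cells, *Nrxn3* and *Slc32a1* lie higher in the GABAergic gate, and *Slc17a6* is at 0 there in WT2 and WT3.

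The GABAergic gate differed from upper layer cells in its transporters, *Nrxn3*, *Syt4* and *Rab3a*. Against upper layer cells 5 of 30 members were called, 2 higher and 3 lower, where 4.4% of all genes were called, 2.09% higher and 2.31% lower. At an unadjusted p under 0.05 there were 6 members, where 16.7% of all genes passed. *Slc32a1*, the vesicular transporter for GABA and glycine, lay at 0.0965, 0.0120 and 0.116 UMIs per 10000 in upper layer cells and at 0.674, 0.236 and 0.795 in GABAergic cells of WT2, WT3 and WT4 (log2 difference 0.53 ± 0.09, limma adjusted p = 0.000373). *Slc17a6* lay at 0.351, 0.644 and 0.372 in upper layer cells and at 0, 0 and 0.0734 in GABAergic cells (-0.50 ± 0.10, limma adjusted p = 0.00216). With 62948 and 117695 UMIs in the GABAergic gate of WT2 and WT3, a count of 0 allows up to 0.477 and 0.255 UMIs per 10000. The limit in WT2 lies above its upper layer *Slc17a6* level, so a lower level was not detectable in that library alone, and the *Slc32a1* level of WT3 in the GABAergic gate lies below its limit.

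*Nrxn3*, a neurexin that joins the presynaptic membrane to partners across the cleft, lay at 0.496, 0.159 and 0.394 in upper layer cells and at 6.11, 2.08 and 5.38 in the GABAergic gate. The groups did not overlap, and the log2 difference was 1.95 ± 0.15 (limma adjusted p = 1.14e-08). *Syt4* showed the opposite order, with 1.86, 0.931 and 1.27 in the GABAergic gate, below each upper layer value (-1.24 ± 0.13, limma adjusted p = 9.42e-07). *Rab3a*, the GTPase that marks vesicles for docking, was at 2.81, 1.96 and 2.63 in GABAergic and 4.24, 4.33 and 3.79 in upper layer cells (-0.57 ± 0.10, limma adjusted p = 0.00126). All 5 Rab3 and complexin genes had a negative difference, but only *Rab3a* passed the test.

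With WT and KO libraries fitted together, *Slc32a1* and *Rab3a* were still called and *Nrxn3*, *Syt4* and *Slc17a6* were not. No filter on low values left *Nrxn3* and *Syt4*, and edgeR called 10 members and 1410 of all 9532 genes. *Slc32a1* was not called with cells of mixed lineage left out (0.46, limma adjusted p = 0.0522, range over its alternatives 4.68e-30 to 0.0691). Of 76 other presynaptic genes, 62 were tested, and 3 were called higher and 3 called lower. The liprin *Ppfia2* (-1.0) and the SNARE protein *Snap47* (-0.44) were among the lower ones and the synaptotagmin *Syt6* (0.47) among the higher ones, with limma adjusted p between 7.84e-06 and 0.0202 for these 3.

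The share of cells with at least 1 UMI, after thinning all cells to 1800 UMIs, gave the same order. *Nrxn3* was seen in 63.0, 35.1 and 57.3% of GABAergic cells of WT2, WT3 and WT4 and in 7.17, 2.28 and 5.10% of upper layer cells. In endothelial and microglia gated cells together, taken as the background of free RNA, it was seen in 7.14, 0 and 3.19% of 28, 15 and 94 cells, where 0 of 15 cells allows a share of up to 20%. These cells had a median of 4590.5, 3597 and 3759.5 UMIs before thinning. *Syt4* was seen in 47.9, 50.1 and 46.5% of upper layer cells against a background of 10.7, 13.3 and 19.1%. In the GABAergic gate its share was 33.3, 13.5 and 17.1%, above the background in WT2 and at or below it in WT3 and WT4 within counting error. Without thinning, the mean share of cells with a *Syt4* UMI over the WT libraries was 65.1% in upper layer cells and 28.2% in the GABAergic gate. Of the 34 genes, 24 had a share above that of the background in upper layer cells of all 3 WT libraries. The count was 21 in newborn, 21 in deep layer and 17 in GABAergic cells. For the others expression was not separable from free RNA at this depth. The counts do not show expression of each gene they hold. *Slc17a7*, below the filter on low values in upper layer cells, is among the 24, and the background shares rest on 28, 15 and 94 cells.

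In upper layer cells, the neurons in which the study placed its question, 1 of 30 members tested was called between KO and WT. It was lower, where 3.49% of all 8359 genes were called with 2.58% higher and 0.909% lower. At an unadjusted p under 0.05 there were 6 members, where 21.5% of all genes passed. *Rab3a* lay at 4.24, 4.33 and 3.79 UMIs per 10000 in WT2, WT3 and WT4 and at 2.68 and 2.75 in KO4 and KO5, without overlap. Its log2 difference was -0.46 ± 0.11 (SE, 3 against 2 libraries, limma adjusted p = 0.0409). In WT5 it lay at 2.62, below both KO libraries. Marker sums of other classes in the upper layer gate also moved with genotype. Those of newborn neurons were 5.04, 6.67 and 6.28 UMIs per 10000 in WT and 3.69 and 2.84 in KO. Those of GABAergic neurons were 0.956, 0.445 and 1.20 in WT and 1.81 and 2.34 in KO, and those of radial glia 1.34, 0.960 and 1.34 against 2.39 and 2.57. Microglia markers summed to 0.164, 0.0360 and 0.109 in WT and 0.582 and 0.887 in KO. WT5 lay outside the WT range on the KO side in all 4 sums, and their part in the result was not tested.

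The call of *Rab3a* did not hold in 11 of 18 alternatives, whose adjusted p ran from 0.0234 to 0.947, though the difference was negative in all of them. It was lost without WT2, KO4 or KO5 (adjusted p = 0.0949, 0.394 and 0.57), where a lone KO library is assumed to vary like the others. With WT5 added to the WT group it was -0.34 (limma adjusted p = 0.737), where 0 of all 8486 genes were called. It was also lost with edgeR (adjusted p = 0.183) and at equal depth (thinned cells, limma adjusted p = 0.0658). With the replicate number as a block, which brings in WT5 and KO2 and leaves out WT3, it was -0.23 (limma adjusted p = 0.772). In that fit 0 of all 8550 genes were called. The share of upper layer cells with a *Rab3a* UMI after thinning was 52.1, 52.7 and 49.7% in WT and 37.8 and 40.2% in KO. In the endothelial and microglia gates it had the opposite order, with 0 (of 28 cells, which allows up to 10.7%), 13.3 and 17% in WT and 25.9 and 32.3% in KO.

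The other members with the largest differences in upper layer cells did not pass the test. *Nrxn3* was at 0.496, 0.159 and 0.394 in WT and 0.658 and 0.721 in KO (0.33 ± 0.10, limma adjusted p = 0.0849), and DESeq2 called it (adjusted p = 0.0301, range over its alternatives 0.0301 to 0.947). *Dnm3* was at 0.701, 0.481 and 0.687 in WT and 0.842 and 0.822 in KO (0.18 ± 0.09, limma adjusted p = 0.252). *Napa*, the adaptor alpha-SNAP that recruits NSF, was at 0.916, 1.31 and 0.820 in WT and 0.592 and 0.644 in KO (-0.31 ± 0.11, limma adjusted p = 0.13). For each of these 3 genes the genotypes did not overlap, but WT5 was on the KO side, with 0.903, 0.917 and 0.648.

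Without overlap between the genotypes, 4 of the 30 genes lay higher in KO and 7 lower, where 11.4 and 31.8% of all genes did so. The median log2 difference of the members was 0.04, beside -0.04 over all genes. By role, all 5 active zone genes (*Bsn*, *Pclo*, *Rims1*, *Rims2*, *Unc13a*) had a difference between 0.00 and 0.09 and all 3 synaptotagmins tested one between -0.18 and -0.01, with none called. *Vamp1*, *Sv2b*, *Slc17a7* and *Syt13* fell below the filter of 0.1 UMIs per 10000 in 2 libraries. In upper layer cells each of these 4 genes lay between 0 and 0.0951 in all 5 libraries.

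**Figure D3:**
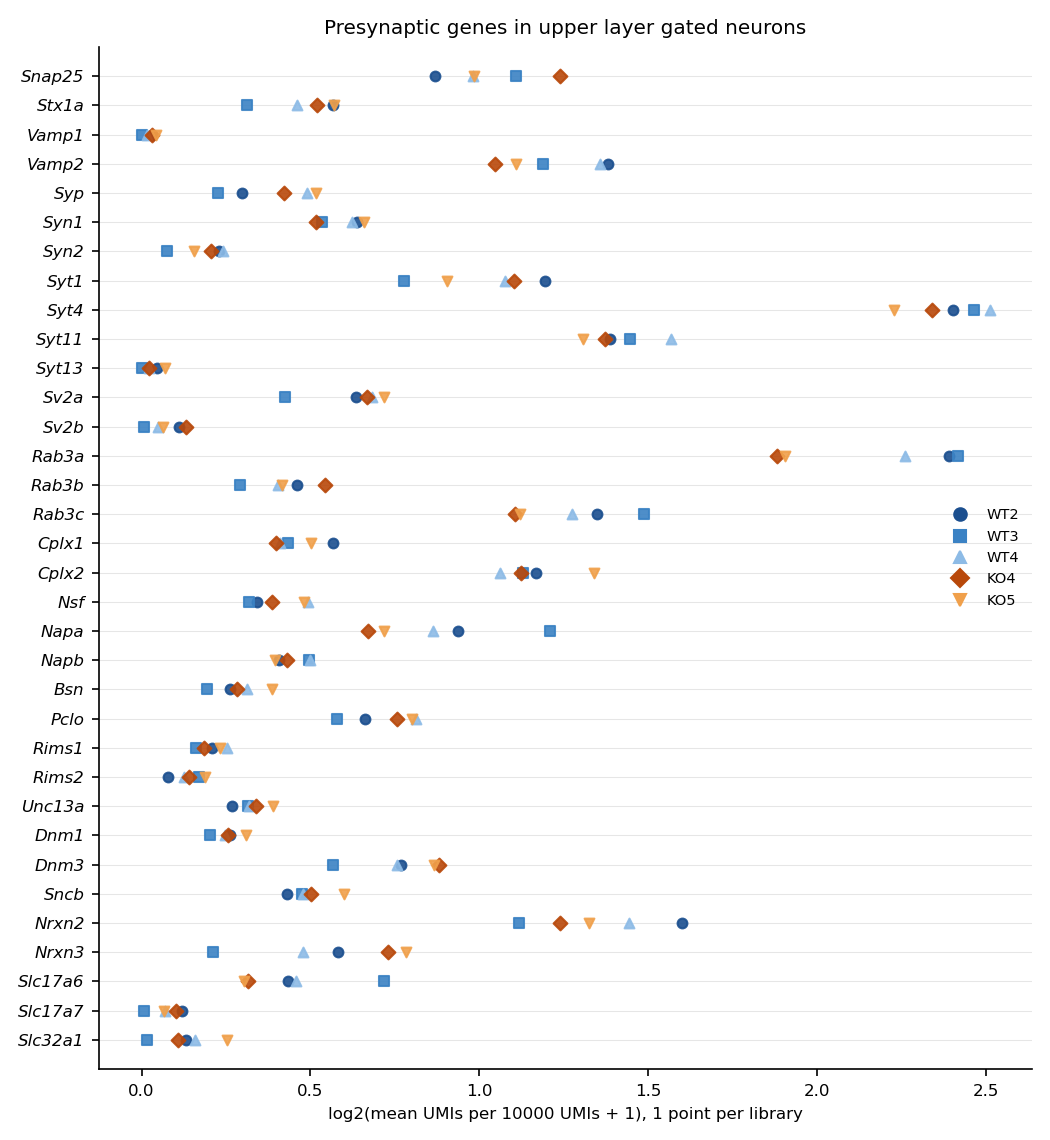
Levels of the 34 presynaptic genes (y axis) in upper layer gated cells, as log2 of mean UMIs per 10000 UMIs plus 1 (x axis), with 1 point per library. *Rab3a* is the gene called between genotypes, with KO4 and KO5 to the left of WT2, WT3 and WT4.

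Deep layer cells gave no call among 30 members (0.477% of all 8593 genes, 0.465% higher and 0.0116% lower, limma-trend), with 3 members at an unadjusted p under 0.05 (9.12% of all genes). No member was called by edgeR or DESeq2 either, which called 222 and 94 of the 8593 genes. *Rab3a* was at 4.42, 3.14 and 3.74 in WT and 2.58 and 2.89 in KO (-0.35 ± 0.15, limma adjusted p = 0.518). *Syt4* was at 5.52, 6.17 and 4.40 in WT and 4.29 and 3.86 in KO (-0.32 ± 0.15, limma adjusted p = 0.562). In both genes the KO values lay below the WT values, and WT5 lay between the KO values, at 2.75 and 4.11. The largest positive differences were those of the synapsin *Syn2*, at 0, 0 and 0.262 in WT and 0.243 and 0.234 in KO (0.20 ± 0.10), and *Dnm3*, at 0.638, 0.571 and 0.727 against 0.927 and 0.771 (0.17 ± 0.11), with limma adjusted p of 0.57 and 0.664. Neither is called, and 0 UMIs in WT2 and WT3 allow up to 0.168 and 0.155 UMIs per 10000. Of the 30 genes, 2 lay higher and 7 lower in KO without overlap, where 7.91 and 22.6% of all genes did.

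Newborn cells gave no call among 30 members either (2.16% of all 8614 genes, 1.08% in each direction, limma-trend), with 4 at an unadjusted p under 0.05 (16.5% of all genes). No member was called by edgeR or DESeq2, which called 90 and 64 of the 8614 genes. *Syt11* was at 2.17, 2.3 and 2.08 in WT and 1.67 and 0.890 in KO (-0.50 ± 0.17, limma adjusted p = 0.12). It was called without KO4 (adjusted p = 0.0416, range over its alternatives 0.0416 to 0.999), and WT5 lay at 1.37. *Napa* was at 1.33, 1.10 and 0.878 in WT and 0.732 and 0.451 in KO (-0.40 ± 0.16, limma adjusted p = 0.181). *Dnm3* (0.26 ± 0.14) and *Stx1a* (0.25 ± 0.11) had the largest positive differences, with limma adjusted p of 0.348 and 0.24 and overlapping genotypes. Without overlap, 5 of 30 lay higher and 3 lower in KO, where 10.8 and 23.2% of all genes did.

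None of 30 members passed the limma test for a genotype difference that itself differed between upper layer and newborn cells, where 0.112% of 8894 genes were called, 0.0562% in each direction. At an unadjusted p under 0.05 there were 2 members (8.62% of all genes). For *Syt11* the difference of differences was 0.38 ± 0.14 (limma adjusted p = 0.47), and for the active zone gene *Rims2* 0.16 ± 0.08 (limma adjusted p = 0.605). For *Rab3a* it was -0.30 ± 0.12 (limma adjusted p = 0.497), and for the calcium sensor *Syt1* -0.25 ± 0.15 (limma adjusted p = 0.657). Between upper and deep layer cells the limma test also called none of 30, where 0.102% of 8820 genes were called, 0.0567% higher and 0.0454% lower, with 3 members at an unadjusted p under 0.05 (3.81% of all genes). The largest values were 0.27 ± 0.11 for *Stx1a*, 0.25 ± 0.14 for *Nrxn3*, -0.23 ± 0.14 for *Rab3c* and -0.20 ± 0.09 for *Syn2*, all with a limma adjusted p of 0.999. The call of *Rab3a* in upper layer cells is therefore not shown to be particular to them.

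In the GABAergic gate 2 of 31 members were called between KO and WT, 1 in each direction, where 1.32% of all 9014 genes were called, 0.777% higher and 0.544% lower. At an unadjusted p under 0.05 there were 5 members, where 11% of all genes passed. *Syt4* lay at 1.86, 0.931 and 1.27 UMIs per 10000 in WT2, WT3 and WT4 and at 3.85 and 3.89 in KO4 and KO5. The KO values were near those of upper layer cells of the same libraries, 4.06 and 3.69. Its log2 difference was 1.07 ± 0.22 (limma adjusted p = 0.000504).

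*Nrxn3* lay at 6.11, 2.08 and 5.38 in WT and at 1.34 and 0.205 in KO, where the 2 KO values rest on 24 and 2 UMIs. The groups did not overlap (-1.63 ± 0.22, limma adjusted p = 9.65e-10). WT5 lay with the KO libraries for both genes, at 3.87 for *Syt4* and 1.04 for *Nrxn3*. With WT5 added to the WT group neither was called (limma adjusted p = 0.504 and 0.793), where 2 of all 9306 genes were called. *Syt4* was also lost without KO4 or KO5 (adjusted p = 0.0617 and 0.0774). Over all alternatives the adjusted p ran from 1.42e-05 to 0.996 for *Syt4* and from 4.35e-15 to 0.937 for *Nrxn3*. With the replicate block *Nrxn3* was called (-1.10, limma adjusted p = 0.00558) and *Syt4* was not (0.55, limma adjusted p = 0.996).

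Both differences moved with the content of the gate, given above by its own markers and *Neurod6*, and their part in the result was not tested beyond the following. When cells with a UMI of *Neurod2* or *Neurod6* were left out, which was chosen after seeing the data, 15, 25 and 395 cells remained in WT and 11 and 2 in KO4 and KO5. *Syt4* was then at 2.69, 1.16 and 1.12 in WT and 0.685 in KO4, and *Nrxn3* at 5.37, 2.22 and 5.32 in WT and 3.28 in KO4. KO5 had too few cells to be fitted. The log2 difference was -0.61 for *Syt4* and -0.24 for *Nrxn3* (limma adjusted p = 0.424 and 0.675, with the lone KO library assumed to vary like the WT libraries). With at least 3 markers asked for, 9 cells remained in KO5, which was left out, and none of the 31 genes was called. The log2 difference was then 0.87 ± 0.39 for *Syt4*, at 1.81, 0.945 and 1.17 in WT and 3.16 in KO4, and -0.73 ± 0.37 for *Nrxn3*, at 3.73, 2.66 and 5.73 against 1.95 (limma adjusted p = 0.937 for both).

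The background of free RNA also moved with genotype. Among thinned endothelial and microglia cells, *Syt4* was seen in 10.7, 13.3 and 19.1% of WT and in 46.6 and 45.2% of KO cells. In the GABAergic gate of KO4 and KO5 it was seen in 45.3 and 43.6% of cells, which is at the background. Its level in endothelial cells was 0.641, 0.530 and 1.58 UMIs per 10000 in WT and 2.76 and 2.44 in KO, and 2.73 in WT5. The 8 endothelial markers summed to 106, 116 and 79.5 in the endothelial gate of WT2, WT3 and WT4 and to 38.9 and 26 in KO4 and KO5. Those of microglia in the microglia gate summed to 193 in WT4, against 33.2 and 20.9 in KO4 and KO5, and WT2 and WT3 held only 3 and 2 such cells. For *Nrxn3* the background was 7.14, 0 and 3.19% in WT and 6.90 and 9.68% in KO, and its share in the GABAergic gate was 63.0, 35.1 and 57.3% in WT and 20 and 5.13% in KO. The part of free RNA, of other cells in the gate and of depth in these values was not tested.

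**Figure D4:**
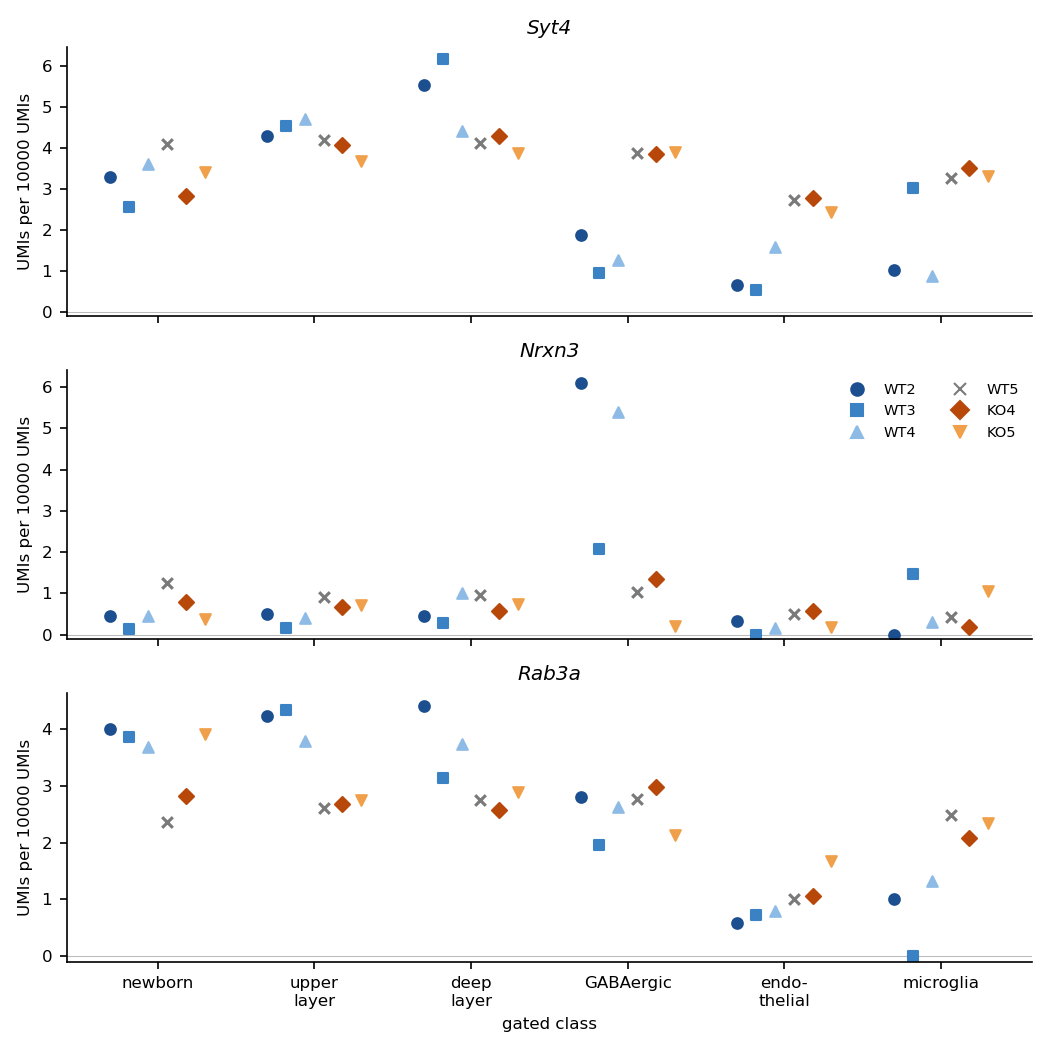
Levels of *Syt4*, *Nrxn3* and *Rab3a* (y axes, UMIs per 10000 UMIs) in 6 gated classes (x axis), 1 point per library. In the GABAergic gate KO4, KO5 and WT5 lie at 3.85 to 3.89 for *Syt4*, above WT2, WT3 and WT4, and the same libraries lie higher than WT2, WT3 and WT4 for *Syt4* in the endothelial gate.

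*Napa* was at 0.925, 1.55 and 0.794 in the GABAergic gate of WT and 0.471 and 0.386 in KO (-0.53 ± 0.21, limma adjusted p = 0.254). The complexin *Cplx2*, which clamps and then promotes fusion, was at 1.09, 0.624 and 0.768 against 1.53 and 1.35 (0.43 ± 0.22, limma adjusted p = 0.463). Neither passed the test. Without overlap, 7 of 31 members lay higher and 3 lower in KO, where 10.9 and 16.8% of all genes did. The median log2 difference of the members was 0.09, beside -0.03 over all genes.

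**Figure D5:**
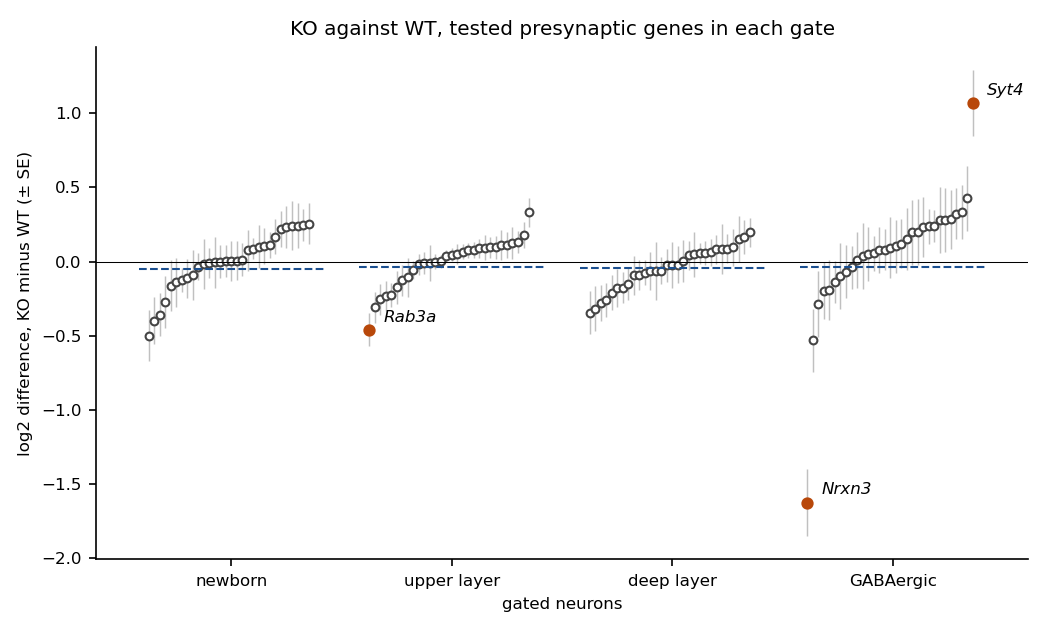
Log2 difference between KO and WT with its SE (y axis) for each presynaptic gene tested, sorted within each neuronal gate (x axis). Filled points are called, dashed lines give the median over all genes, and the 3 called values are *Rab3a* in upper layer and *Syt4* and *Nrxn3* in GABAergic cells.

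The genotype differences of *Syt4* and *Nrxn3* differed between upper layer and GABAergic cells when the difference itself was tested (2 of 31 members, where 0.998% of 9322 genes were called, 0.461% higher and 0.536% lower). At an unadjusted p under 0.05 there were 6 members, where 9.09% of all genes passed. For *Syt4* the upper minus GABAergic difference was -1.24 ± 0.19 (limma adjusted p = 4.23e-06), and for *Nrxn3* 1.96 ± 0.26 (limma adjusted p = 2.79e-05). Neither was called with a gate of 3 markers, which left KO4 as the only KO library (-0.86 and 1.05, limma adjusted p = 0.961 and 0.788). These were the smallest sizes over the 8 alternatives, none of which changed the sign. None of the 8 added WT5 or left out cells with *Neurod2* or *Neurod6*. With WT5 added neither gene was called in the GABAergic gate itself, and without those cells *Syt4* changed sign there. *Rab3a* (-0.50 ± 0.19) and *Slc32a1* (0.27 ± 0.16) did not pass, with limma adjusted p of 0.328 and 0.648. Of the other presynaptic genes *Ppfia2* was called (-0.80 ± 0.20, limma adjusted p = 0.0244).

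The summed level of the 34 genes was also compared by genotype, with no test. In upper layer cells it was 26.6, 24.7 and 26.5 UMIs per 10000 in WT and 23.6 and 24 in KO, and in the GABAergic gate 28.9, 17.1 and 25.8 against 25.7 and 24.5. In the endothelial gate it was 8.21, 6.93 and 9.75 in WT and 15.1 and 20.4 in KO, with 15.7 in WT5. In the microglia gate WT4 had 11.7 over 53 cells, KO4 20.2 over 48 and KO5 19.8 over 13. The KO values lay below the WT values in upper layer cells, within their range in the GABAergic gate and above them in the endothelial gate. WT5 had 24.8 in upper layer cells, within the WT range. Without *Syt4* and *Rab3a* the upper layer sums were 18.1, 15.8 and 18.0 in WT and 16.9 and 17.6 in KO, which overlap. Of the 34 genes, 21 lay above the background share in upper layer cells of both KO libraries and 15 in GABAergic cells. The 21 include *Syt13*, *Sv2b* and *Slc17a7*, which fell below the filter on low values there. These counts therefore do not show expression of each gene they hold.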

How the data were processed

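The authors aligned reads to GRCm38 and counted UMIs with Cell Ranger, then filtered and normalized cells with Seurat. Whole UMI counts were deposited for 4 libraries (WT replicates 4 and 5, KO replicates 4 and 5). For the other 5, values were deposited as a natural log (of UMIs per 10000, plus 1), and 100% of them came back as whole UMIs within 1e-06. WT4 is the only WT library compared that was deposited as counts.

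Cells had 1000 to 5000 genes, 1800 to 10000 UMIs, under 6% mitochondrial and at most 1% haemoglobin UMIs. After thinning to 1800 UMIs a cell took the class with most distinct markers of 8 (at least 2, and more than any other), and newborn, upper and deep layer cells also needed a UMI of *Neurod2* or *Neurod6*. No doublet caller was run. An alternative left out cells with markers of another lineage. In the libraries compared, total UMIs per gate ran from 62948 to 6827344 in neuronal gates and from 6653 to 236429 in endothelial and microglia gates. Intervals and limits from a count of 0 (3 counts) cover counting error only.

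Means over cells, as log2(UMIs per 10000 + 1), were tested with limma-trend 3.58.1 in R 4.3.3 with robust variances, 1 value per library, for genes with at least 0.1 in 2 libraries, and Benjamini-Hochberg values under 0.05 were called. The pseudocount of 1 understates differences of low genes. Comparisons of classes used WT libraries with library as a term. As alternatives, edgeR 4.0.16 and DESeq2 1.42.0 were run on summed UMIs. Each embryo is 1 replicate.

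The genes and lists were chosen with earlier results of these data known. Values are given for members that were called and for the 2 highest and 2 lowest differences of each comparison, and for up to 5 called genes of 76 others. Some results for those other genes are not reported here. Deviations of libraries from their genotype mean in upper layer cells were correlated over 1490 genes. The values were 0.496 for WT2 with KO2, 0.242 for WT4 with KO4 and 0.445 for WT5 with KO5. For libraries of other numbers they ran from -0.475 to 0.258, and the 0.258 of WT5 with KO4 lay above that of WT4 with KO4. The number was used as a block in an alternative only, not in the main tests, and the labels do not say what it stands for. In simulated upper layer data with 100 genes changed by a log2 of 1, limma recovered 51%, and 100% of 100 genes changed by 2, among 8065 genes. In simulated GABAergic data of 8368 genes it recovered 11 and 87%. The median estimate of a log2 change of 1 was 0.674 in the upper layer and 0.589 in the GABAergic simulation. These shares are for the simulated changed genes and were not split by expression level. They are therefore not the power for the presynaptic genes, many of which had low levels, where the pseudocount understates differences.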

Additional observations from a re-analysis of the deposited data

Results flagged for a closer look

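The genotype difference of *Nrxn3* was lower in GABAergic than in upper layer gated cells, and the test of the difference itself gave 1.96 on the log2 scale (upper minus GABAergic, limma adjusted p = 2.79e-05). That of *Syt4* was higher in GABAergic than in upper layer gated cells, with -1.24 on the log2 scale (limma adjusted p = 4.23e-06). With a gate of 3 markers, which left 1 KO library, the values were 1.05 and -0.86 and neither was called. The difference itself was not fitted with WT5 added or without cells with *Neurod2* or *Neurod6*. The level of GABAergic markers in the gate, the share of cells with a *Syt4* UMI outside neurons and the level of *Neurod6* in the gate differed between the same libraries, and their part was not tested.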

How the results depend on the processing

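Of 556 values of single genes under alternatives, 487 kept their direction and their side of the threshold, 52 were no longer called, 9 became called and 8 changed sign. In upper layer cells, 0 members were called with no filter on low values, with edgeR, in thinned cells, with WT5 added, with all libraries as labelled and with the replicate block, and 0 to 1 with a library left out. In newborn cells the count was 0 to 1 with a library left out. In GABAergic cells it was 0 with no filter on low values, with a gate of 3 markers, with WT5 added, with all libraries as labelled and without cells with *Neurod2* or *Neurod6*, 1 with DESeq2, with haemoglobin-rich cells kept and with the replicate block, and 1 to 2 with a library left out. Between upper layer and newborn cells edgeR called 5 members, and between upper and deep layer cells 4. Between deep layer and newborn cells the count was 1 with WT and KO together, with a gate of 3 markers and with cells of mixed lineage left out, 0 with no filter, 8 with edgeR and 0 to 2 with a library left out. Between GABAergic and upper layer cells it was 2 with WT and KO together and with no filter, and 10 with edgeR. For the difference between upper layer and GABAergic cells it was 0 with a gate of 3 markers. Over all genes in upper layer cells, 40 of 15781 were called with no filter, 307 of 8359 with edgeR and 216 of 8416 in thinned cells. With WT5 added, all libraries and the replicate block, 0 of 8486, 9029 and 8550 genes were called there. In GABAergic cells 0 of 14317 genes were called with no filter, 2 of 9306 with WT5 added or all libraries, and 8 of 9007 with the block. Where few or no genes were called, the loss is not particular to the members. The cause of these changes was not tested, and leaving out a library or cells also leaves fewer samples.

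The sign changed for *Napa* in upper layer cells with all libraries (0.088), for *Dnm3* with the replicate block in deep layer (-0.060) and newborn cells (-0.24), for *Syt11* in newborn cells with all libraries (0.066), and in GABAergic cells without *Neurod2* or *Neurod6* for *Syt4* (-0.61) and *Napa* (0.33). It also changed for the difference of differences of *Syt1* between upper layer and newborn cells without KO5 (-0.53 to 0.029 with a library left out) and of *Slc32a1* between upper layer and GABAergic cells with a gate of 3 markers (-0.021). *Tcf4* over all 9 libraries as labelled was 0.901 UMIs per 10000 higher in KO (2-sided exact permutation p = 0.73). In the genotype comparisons within a gate, the replicate block ended the calls of *Rab3a* and *Syt4* and changed no other call of a member, and it was not run for differences between classes. The depth of 62948 to 181706 UMIs in the GABAergic gates of WT2, WT3, KO4 and KO5 limits what could be detected there.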
